A study of Homo sapiens with 2 samples.

Results

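The granins and the genes that process prohormones were followed over single cells of SH-SY5Y (SY5Y), a human neuroblastoma cell line. The group holds 10 of the 33538 genes counted: CHGA, CHGB, SCG2, SCG3, SCG5, PCSK1N, PCSK1, PCSK2, CPE and PAM. They were taken by name, and the group was chosen by the levels and the variance of granin genes already measured in these same cells, so those values are given as a description and were not tested. The cells were untreated, were grown as 1 line without synchronization in 2 flasks called SplitA and SplitB, and carried a hashtag antibody of their own flask. The flasks did not differ in treatment and served as the 2 replicates. Their cells were pooled, and the 2 samples are the mRNA library and the hashtag library of this pool, not the flasks. A cell was assigned to a flask when its hashtag had at least 3 times the counts of the other, within the limit that the study set on the other. Cells with at least 1000 genes were kept, which left 899 cells of SplitA and 1195 of SplitB. They held 1801 to 27205 unique molecular identifiers (UMIs, the counted molecules), with a median of 6063 in SplitA and 6346 in SplitB.

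Granins are acidic proteins of the dense-core vesicles of neuroendocrine cells and neurons. They take part in forming these vesicles and are themselves cut into peptides. Prohormones in the same vesicles are cut by the convertases PCSK1 and PCSK2, trimmed by the carboxypeptidase CPE and amidated at their end by PAM. Neuroblastoma arises from the sympathoadrenal lineage, whose chromaffin cells gave chromogranin A its name. CHGA and CHGB code for chromogranins A and B, SCG2 and SCG3 for secretogranins, SCG5 for 7B2, the chaperone of PCSK2, and PCSK1N for proSAAS, an inhibitor of PCSK1.

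The identity of the cells was checked against markers. Of the adrenergic neuroblastoma genes, STMN2 had 708 CPM (UMIs among 1000000 UMIs of the flask) in SplitA and 677 in SplitB, PHOX2A 685 and 665, DBH 335 and 325, HAND2 318 and 318, GATA3 249 and 238, and ISL1 181 and 180. CHRNA3 had a UMI in 57.5% and 60.8% of cells. TH, which codes for tyrosine hydroxylase, had 9 UMIs in each flask. Of the 10 mesenchymal genes, summing to 181 and 177 CPM, TWIST1 alone was found in at least 10% of cells of both flasks, and PRRX1 and COL1A2 had no UMI. The 10 Schwann cell genes summed to 6.15 and 5.45 CPM, and SOX10 had no UMI. No cell type without granins was in the library, so the share of cells that free RNA alone gives a UMI could not be measured.

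The promoters of 3 members are shown because the counts of these genes over cells differed. CHGA was found in most cells and was high in some. PCSK1N was found in most cells without such high counts, and PCSK1 in none. RefSeq (GRCh38.p14) windows were matched by symbol for 8 of the 10 members, and CHGB and SCG2 were not matched. Each sequence is the 250 bases before a RefSeq start, 5′ to 3′ on the strand of the gene. The RefSeq start used for PCSK1 lies inside the span that GENCODE gives this gene, not at its end. Capitals mark the cAMP response element TGACGTCA in CHGA and PCSK1, and the GC box GGGCGG in PCSK1N.
CHGA, chr14:92922900-92923149, plus strand: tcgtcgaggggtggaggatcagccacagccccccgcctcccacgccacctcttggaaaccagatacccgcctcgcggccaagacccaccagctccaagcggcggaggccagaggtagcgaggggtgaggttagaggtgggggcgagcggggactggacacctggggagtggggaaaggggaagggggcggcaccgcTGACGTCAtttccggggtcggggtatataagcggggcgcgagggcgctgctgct
PCSK1N, chrX:48835611-48835860, minus strand: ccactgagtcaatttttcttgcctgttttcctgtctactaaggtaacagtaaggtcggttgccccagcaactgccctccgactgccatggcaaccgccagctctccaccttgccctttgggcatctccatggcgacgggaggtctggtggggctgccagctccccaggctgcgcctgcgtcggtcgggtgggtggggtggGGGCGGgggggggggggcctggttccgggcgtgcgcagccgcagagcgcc
PCSK1, first of 2 windows, chr5:96433249-96433498, minus strand: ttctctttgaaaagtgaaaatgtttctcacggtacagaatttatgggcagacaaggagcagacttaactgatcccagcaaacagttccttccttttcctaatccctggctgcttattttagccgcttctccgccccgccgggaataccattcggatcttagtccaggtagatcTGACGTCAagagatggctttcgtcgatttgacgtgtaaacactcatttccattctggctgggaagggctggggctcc

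Both strands were searched. TGACGTCA stood in 1.65% of the 35116 windows of all genes and GGGCGG in 42.6%. The element of CHGA began 54 bases before its RefSeq start and that of PCSK1 began 77 bases before the RefSeq start of its window. Neither the windows of SCG3, SCG5, PCSK1N, PCSK2, CPE and PAM nor the second window of PCSK1 held TGACGTCA. GGGCGG was found once in each of the 3 windows shown.

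CHGA (chromosome 14, 92923150 to 92935285, plus strand, GRCh38) was the granin with the most UMIs. It had 2393 UMIs in SplitA, or 409 CPM (95% Poisson interval 393 to 426), and 3124 UMIs in SplitB, or 387 CPM (374 to 401). At these levels it ranked 264 and 276 among all genes. CHGB (chromosome 20, 5911510 to 5925353, plus strand) had 192 CPM (181 to 204) in SplitA and 183 (174 to 193) in SplitB. SCG2 (chromosome 2, 223596940 to 223602361, minus strand) had 38.4 CPM (33.6 to 43.8) and 45.5 (41.0 to 50.4). SCG3 (chromosome 15, 51681492 to 51721026, plus strand), which binds CHGA in the vesicle, had 151 CPM (141 to 161) and 154. All intervals here cover counting error only.

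The convertases were at the limit of detection, while the proteins that act on them were not alike. PCSK1 (chromosome 5, 96390333 to 96434143, minus strand) had no UMI in any of the 2879 barcodes of the table. In the kept cells, 0 of 899 and 0 of 1195 allow a share of up to 0.334% and 0.251% of cells with a UMI, and up to 0.513 and 0.372 CPM, so PCSK1 was not detectable at this depth. PCSK2 (chromosome 20, 17226107 to 17484578, plus strand) had 2 UMIs in SplitA and 3 in SplitB. Its chaperone gene SCG5 (chromosome 15, 32641676 to 32697098, plus strand) had 17 and 23 UMIs, or 2.90 and 2.85 CPM, and a UMI in 1.89% and 1.76% of cells. The inhibitor gene PCSK1N (chromosome X, 48831096 to 48835610, minus strand) had 269 CPM (256 to 283) and 283 (272 to 295), and a UMI in 76.8% and 78.2% of cells, more than any other member. Thus the inhibitor gene had 3861 UMIs in kept cells that held no UMI of PCSK1.

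The enzymes that finish the peptides were present at low levels. CPE (chromosome 4, 165361194 to 165498547, plus strand) had 48.2 CPM in SplitA and 48.3 in SplitB. PAM (chromosome 5, 102753981 to 103029730, plus strand) had 27.2 CPM (23.1 to 31.7) and 33.8 (29.9 to 38.1). No member overlaps another counted gene on its own strand in GENCODE 44.

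Among 22 other convertases, carboxypeptidases and peptide-modifying enzymes, 5 had a UMI in at least 10% of cells of both flasks and 6 had no UMI in the kept cells. PCSK7, a convertase of the secretory pathway, had 44.1 and 45.1 CPM, and FURIN, which acts in the Golgi, 6.32 and 5.33. Among 22 other precursors of granins and neuropeptides, 6 reached at least 10% of cells. Galanin (GAL) had 1203 and 1324 CPM, neuropeptide Y (NPY) 339 and 422, and VGF, a granin-like protein, 212 and 282. PENK and SST, the precursors of enkephalins and somatostatin, had no UMI in the kept cells.

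Levels of different genes were compared per length, as CPM per kb of the canonical transcript. In this unit PCSK1N led with 263 (250 to 276) in SplitA and 276 (265 to 288) in SplitB, before CHGA with 206 (198 to 214) and 195 (188 to 202). CHGB followed with 78.1 and 74.4, and SCG3 with 47.7 and 48.8. CPE with 18.7 in each flask and SCG2 with 15.8 and 18.7 were neighbours whose intervals overlapped in both flasks, so their order was not resolved. PAM had 6.81 and 8.48, SCG5 2.42 and 2.38, and PCSK2 0.0728 and 0.0793 CPM per kb, with intervals that overlap the limit for PCSK1. The reads come from the 3′ ends of transcripts, for which a longer transcript need not give more UMIs, and by CPM alone CHGA stood before PCSK1N.

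**Figure D1:**
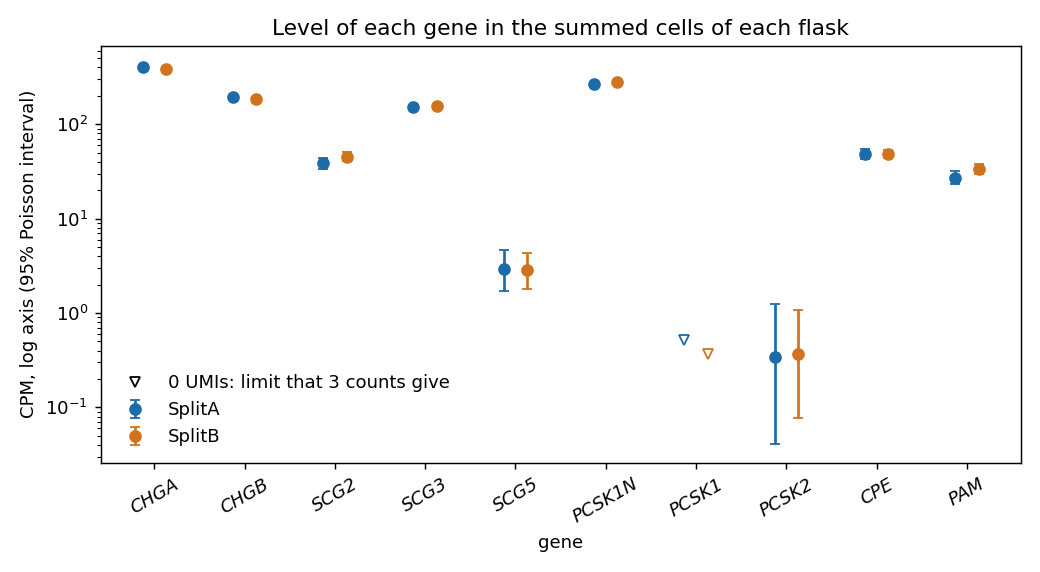
CPM (log axis) of each gene over the summed cells of SplitA (899 cells) and SplitB (1195 cells), with 95% Poisson intervals. The flasks lie close together for the members with most UMIs, CHGA at 409 and 387 CPM. PAM stands at 27.2 and 33.8 CPM, and the intervals of SCG5 and PCSK2 are wide. Open triangles place PCSK1, which had no UMI, at the limit that 3 counts give.

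The flasks gave nearly the same levels for the members with most UMIs. The log2 ratio of SplitA over SplitB was between -0.07 and 0.08 for CHGA, CHGB, SCG3, PCSK1N and CPE. It was -0.24 (exact interval -0.49 to 0.00) for SCG2 and -0.32 (-0.61 to -0.03) for PAM. PAM was thus the 1 member with a ratio of at least 0.25 in size, among 5626 genes of which 9.38% had such a ratio. A single flask on each side allows no test, and without the 2% of barcodes with most UMIs no member passed that size.

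CHGA and CHGB varied more from cell to cell than the other members. In SplitA, CHGA had 0 UMIs in 304 cells, 1 or 2 in 338, 3 to 9 in 204, and 10 or more in 53, with a highest count of 60. In SplitB these numbers were 436, 453, 229 and 77, with a highest count of 63. Most cells thus held few CHGA UMIs and about 6% held 10 or more (5.90% and 6.44%). The 10% of cells with most CHGA UMIs held 53.4% of them in SplitA and 55.2% in SplitB.

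CHGB was more uneven still. It had 0 UMIs in 604 cells of SplitA and 763 of SplitB, and 10 or more in 33 and 36 cells, up to 34 and 40. The top 10% of cells held 76.4% and 73.8% of the CHGB UMIs. For PAM, a gene with few UMIs, they held 70.4% and 65.2%, so this share alone does not measure spread beyond counting. A UMI of CHGB was found in 32.8% of cells of SplitA (exact binomial interval 29.7% to 36.0%) and 36.2% of SplitB (33.4% to 38.9%). SCG3, at a similar CPM, was found in 59.4% and 61.3% of cells, with no cell above 8 UMIs. With every cell thinned to 2000 UMIs, which left out 1 cell of SplitA and 2 of SplitB, these shares were 18.3% and 19.6% for CHGB and 25.4% and 27.2% for SCG3.

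On the log-normalized scale, which is the natural log of 1 plus the count per 10000 UMIs of the cell, the median cell of CHGA stood at 1.08 in SplitA and 0.96 in SplitB. The lowest cells were at 0 and the highest at 4.43 and 4.80. The median cell of CHGB was at 0 in both flasks and the highest at 4.62 and 4.61. PCSK1N had its median at 1.19 and 1.2 and its highest cell at 2.98 and 2.94, and SCG3 its median at 0.83 and 0.86 and its highest cell at 2.68 and 2.63. The highest cells of the chromogranins thus stood above those of the latter pair.

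The spread beyond counting was measured as a dispersion index, the mean squared difference from the count that the UMI total of the cell predicts, in units of Poisson variance, so that 1 is counting noise. For CHGA this index was 7.36 in SplitA and 8.19 in SplitB, and for CHGB 8.95 and 7.43. By the lower of the values of the flasks, CHGB ranked 16 and CHGA 17 among 5512 genes with at least 0.1 UMIs per cell in both flasks, where the median index was 1.07 in SplitA and 1.08 in SplitB. They were the 2 members with an index of at least 1.5 in both flasks, among 7 measured, and 5.55% of all these genes reached it. The other 5 members had lower values: SCG2 1.28 and 1.62, PCSK1N 1.33 and 1.34, SCG3 1.21 and 1.27, CPE 1.19 and 1.41, and PAM 1.03 and 1.08. The coefficient of variation left after removing counting noise was 1.51 and 1.54 for CHGA, 2.42 and 2.41 for CHGB, 0.35 and 0.38 for SCG3, and 0.37 and 0.39 for PCSK1N. For the members with fewer UMIs it was 0.99 and 1.24 for SCG2, 0.65 and 0.97 for PAM, and 0.41 and 0.66 for CPE. By this measure SCG2 thus stood nearer to CHGA than by the index. The high variance of the chromogranins was among the values that chose this group.

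**Figure D2:**
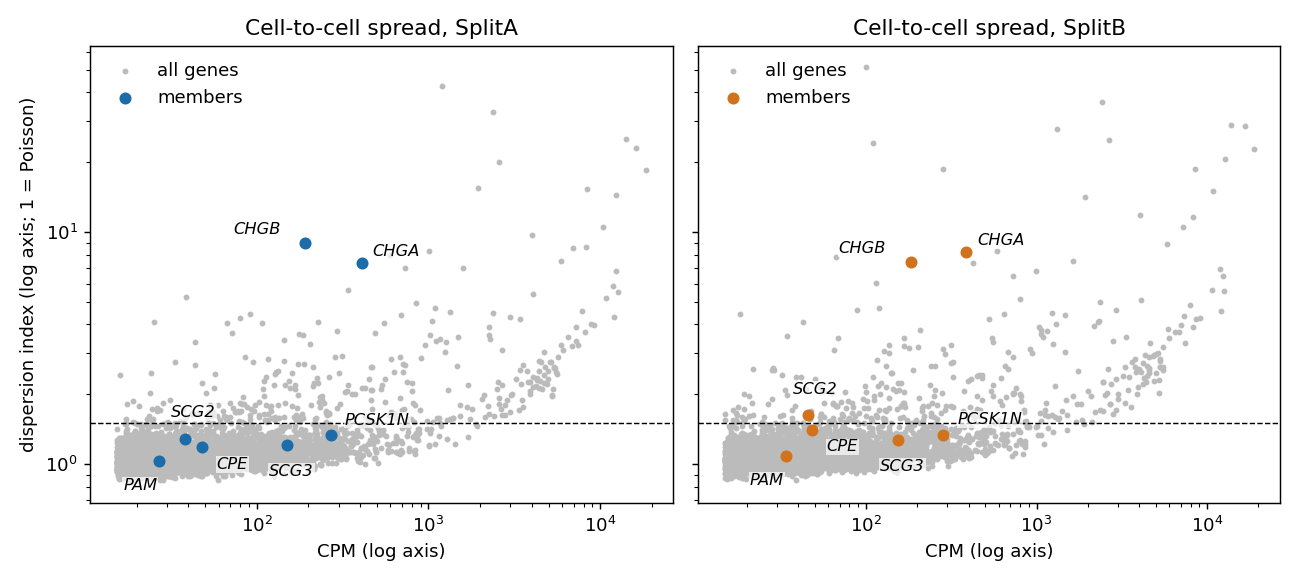
Dispersion index against CPM (log axes) for the 5512 genes with at least 0.1 UMIs per cell in both flasks, 1 panel per flask, members coloured and the limit of 1.5 dashed. CHGA and CHGB, ranked 17 and 16 by the lower flask value, lie far above most genes, with indices from 7.36 to 8.95. The other members lie in or near the main band.

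Correlations were taken over the cells of each flask (n = 899 and 1195) as Pearson's r of the log-normalized values. They describe cells that share 1 library, its free RNA and its depth, and carry no p-value. Of the 21 pairs of the 7 members with a UMI in at least 10% of cells, 2 had r of at least 0.2 in both flasks, against 0.138% of the pairs of all such genes. CHGA and CHGB had r = 0.45 in SplitA and 0.40 in SplitB. CHGB and SCG2 had 0.21 and 0.29. CHGA and SCG2 had 0.06 and 0.17, and CHGA and CPE 0.17 and 0.18. The median r over the pairs was 0.06 and 0.07. SCG3 and PCSK1N, both found in most cells, had -0.02 and 0.03 with each other, and between 0.00 and 0.07 with CHGA and CHGB.

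Counting noise lowers the r of genes with few UMIs. With that noise subtracted, on the scale of counts and not of log-normalized values, CHGA and CHGB had r = 0.62 and 0.57. CHGB and SCG2 had 0.60 and 0.65, and CHGA and CPE 0.69 and 0.58. Without the subtraction, Pearson residuals of the counts gave 0.50 and 0.47, 0.25 and 0.34, and 0.15 and 0.22 for these pairs. The rise from the log-normalized values thus also holds a change of scale. With counting noise subtracted, the values of SCG3 and of PCSK1N with CHGA and CHGB lay between 0.02 and 0.18. With SCG2 they were higher, at 0.51 and 0.43 for SCG3 and 0.43 and 0.18 for PCSK1N. SCG2 and CPE had 0.91 and 0.73. Some corrected values passed 1 in SplitA, with 1.08 for SCG3 and CPE and 1.16 for CPE and PAM. In SplitB these pairs had 0.33 and 0.02. CHGB and CPE had 0.72 in SplitA and 0.25 in SplitB. Corrected values are thus rough for genes with few UMIs, and several of those of CPE differed between flasks. With cells thinned to 2000 UMIs, CHGA and CHGB had 0.33 and 0.27.

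**Figure D3:**
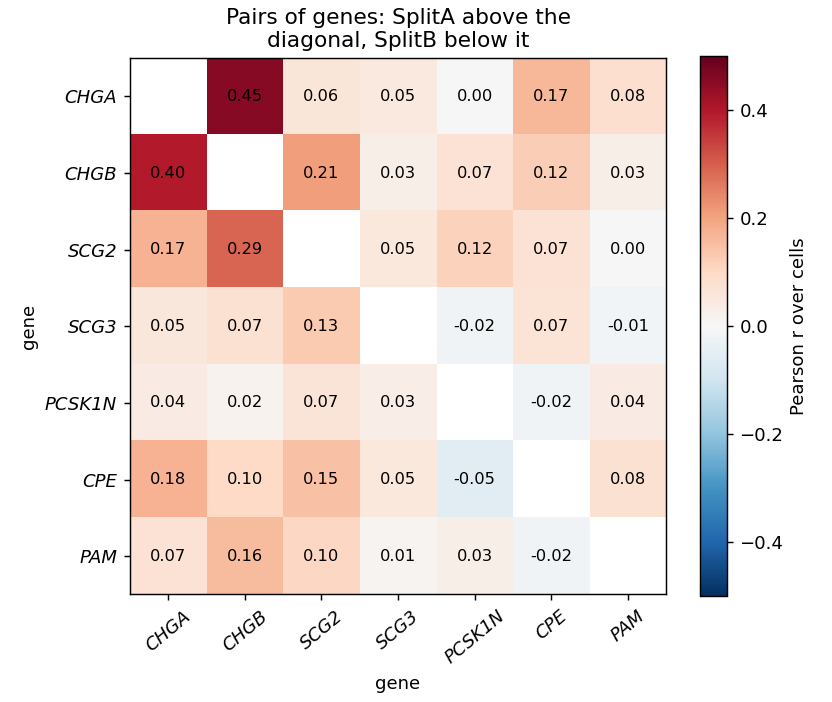
Pearson's r over cells of each pair of the 7 members with a UMI in at least 10% of cells, SplitA above the diagonal and SplitB below it. CHGA with CHGB (0.45 and 0.40) and CHGB with SCG2 (0.21 and 0.29) are the strongest squares, and the rows of SCG3 and PCSK1N are pale.

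The cells with most of a granin partly coincided. Of the 90 cells of SplitA highest in CHGA, 46 (51.1%) were also among the 90 highest in CHGB, and in SplitB 50 of 120 (41.7%). The top cells of CHGB and SCG2 shared 30.0% and 28.3%, those of CHGA and SCG3 15.6% and 15.8%, and those of CHGA and PCSK1N 11.1% and 13.3%. Each list holds 10.0% of the cells of its flask.

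Levels over classes of CHGA UMIs showed where the relation lies. The classes are those given above, cells with 0, 1 or 2, 3 to 9, and 10 or more UMIs. In SplitA, CHGB stood at 39.5, 108, 258 and 854 CPM in these classes. In SplitB it stood at 58.7, 95.9, 243 and 786 CPM. CHGB was thus higher at each step of CHGA in both flasks. CPE, the carboxypeptidase, had 36.7 and 40.4 CPM in cells without CHGA and 69.9 and 67.6 in those with 10 or more UMIs. PAM had 21.4 and 27.0 CPM in the former and 49.1 and 56.3 in the latter. SCG2 had 36.7 and 33.1 CPM in the former and 62.3 and 86.3 in the latter. PCSK1N had 281 and 272 CPM in the former and 272 and 310 in the latter, and SCG3 151 and 154 against 121 and 155. Between these classes the intervals of PCSK1N and SCG3 overlapped in both flasks. Those of SCG2 overlapped in SplitA (28.3 to 46.7 and 42.9 to 87.5). The cells with 10 or more CHGA UMIs were deeper, with a median of 8081 and 9474 UMIs against 5659 and 5867 in those without.

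By CHGB, 604 cells of SplitA had no UMI, 233 had 1 to 4 and 62 had 5 or more. CHGA had 238 CPM in the first of these, 470 in the second and 1310 (1218 to 1407) in the third. In SplitB, with 763, 349 and 83 cells, CHGA had 235, 430 and 1097 CPM (1029 to 1168). SCG2 had 28.9, 38.9 and 97.3 CPM in SplitA and 29.0, 50.2 and 122 in SplitB, so SCG2 was higher at each step of CHGB. In SplitA the first of these steps had overlapping intervals (23.7 to 35.0 and 29.9 to 49.6). The cells of 5 or more CHGB UMIs were deeper, with a median of 7484 and 9928 UMIs against 5949 and 6171 in those without. CPE had 41.9, 54.0 and 71.2 CPM in SplitA and 43.5, 54.9 and 57.2 in SplitB. The CPE intervals of SplitB overlapped between all classes (37.8 to 49.8 in the first, 42.6 to 75.2 in the third). PAM had 25.1, 25.5 and 45.2 CPM in SplitA and 25.1, 37.4 and 71.8 in SplitB. Its intervals in SplitA overlapped between all classes (20.2 to 30.8 in the first, 29.5 to 66.2 in the third). PCSK1N rose little, with overlapping intervals (267, 269 and 285 CPM in SplitA, 278, 290 and 295 in SplitB). SCG3 did not rise at each step of CHGB (147, 167 and 132 CPM in SplitA, 152, 161 and 151 in SplitB).

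CHGB had r of at least 0.2 in both flasks with 17 genes and of at most -0.2 with 6, which are 0.328% and 0.116% of the 5190 other genes found in at least 10% of cells. With depth and cycle scores held constant, these counts were 22 and 60, so the balance of the sides depends on the measure. On the log-normalized scale S100A11, a calcium-binding protein gene, led with 0.58 in SplitA and 0.46 in SplitB. GAL had 0.44 and 0.42, TFPI2, a serine protease inhibitor gene, 0.40 and 0.40, and CHGA 0.45 and 0.40. DLK1, an imprinted Notch ligand gene of the adrenal medulla, had 0.40 and 0.38. GNAS had 0.39 and 0.35, and its locus also encodes the granin-like protein NESP55, which counts of the shared 3′ end cannot separate from the G protein subunit. S100A6 had 0.37 and 0.34, DDC and DBH, enzymes of catecholamine synthesis, 0.31 and 0.28 and 0.27 and 0.29, and VIM, which codes for vimentin, 0.27 and 0.27. Among the lowest values were those of RPS7 (-0.36 and -0.35), PTMA (-0.32 and -0.32), RPL22L1 (-0.32 and -0.33) and RPL35A (-0.29 and -0.24).

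S100A11 and TFPI2 were rare genes, with a UMI in 15.9% and 17.3% of cells and in 13% and 16.5%. S100A11 had 29.2 CPM in cells of SplitA without CHGB, 89.2 in those with 1 to 4 UMIs and 492 in those with 5 or more, and 33.2, 165 and 420 CPM in SplitB. GAL had 587, 1130 and 5297 CPM in SplitA and 670, 1434 and 4573 in SplitB. Of the cells highest in CHGB, 53.3% and 50.8% were also among those highest in GAL. As a class, cells with 5 or more CHGB UMIs thus had higher GAL and S100A11 levels than cells without. The remaining cells highest in CHGB were not among those highest in GAL. With stricter cell filters, which also ask for under 15% of UMIs on all 13 mitochondrial protein-coding genes and left 829 and 1091 cells, CHGB had r = 0.62 and 0.52 with S100A11 and 0.49 and 0.48 with GAL. With a minimum of 300 genes these values were lower, at 0.39 and 0.31 with S100A11 and 0.30 and 0.28 with GAL. Thinned to 2000 UMIs, CHGB had 0.35 and 0.32 with GAL. By Pearson residuals of the counts CHGB had 0.44 and 0.30 with S100A11. Its residual values were higher with GAL (0.46 and 0.45), TFPI2 (0.51 and 0.46), CHGA (0.50 and 0.47) and DLK1 (0.50 and 0.44).

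CHGA had r of at least 0.2 in both flasks with 25 genes (0.482% of 5190) and of at most -0.2 with 60 (1.16%). By Pearson residuals of the counts these numbers were 26 and 19, by Spearman's rho 12 and 12. With depth and cycle scores held constant they were 35 and 98, so the balance of the sides depends on the measure. Behind CHGB came DLK1 (0.39 and 0.35), DBH (0.31 and 0.37), MT-CYB (0.31 and 0.33), MT-CO1 (0.29 and 0.36), DDC (0.30 and 0.29), GNAS (0.27 and 0.27), MT-ND4 (0.27 and 0.38), MT-ND5 (0.26 and 0.35) and MT-CO2 (0.26 and 0.29). The lowest were PTMA (-0.33 and -0.34), RPL35A (-0.33 and -0.32), HMGN1 (-0.32 and -0.31), RPLP2 (-0.28 and -0.31) and RPS15 (-0.27 and -0.29). DBH, which makes noradrenaline inside the vesicle, had 236 CPM in cells of SplitA without CHGA and 782 in those with 10 or more CHGA UMIs, and 201 and 669 CPM in SplitB. In all, 9 of the 25 genes were mitochondrial and 42 of the 60 were ribosomal protein genes. With these stricter cell filters, which leave out cells by the mitochondrial genes themselves, 16 genes passed on the positive side, none of them mitochondrial, and 6 on the negative side, none of them a ribosomal protein gene. In that setting CHGA had r = 0.47 and 0.39 with CHGB, 0.40 and 0.39 with DLK1, 0.31 and 0.35 with DBH, and 0.32 and 0.37 with DDC.

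**Figure D4:**
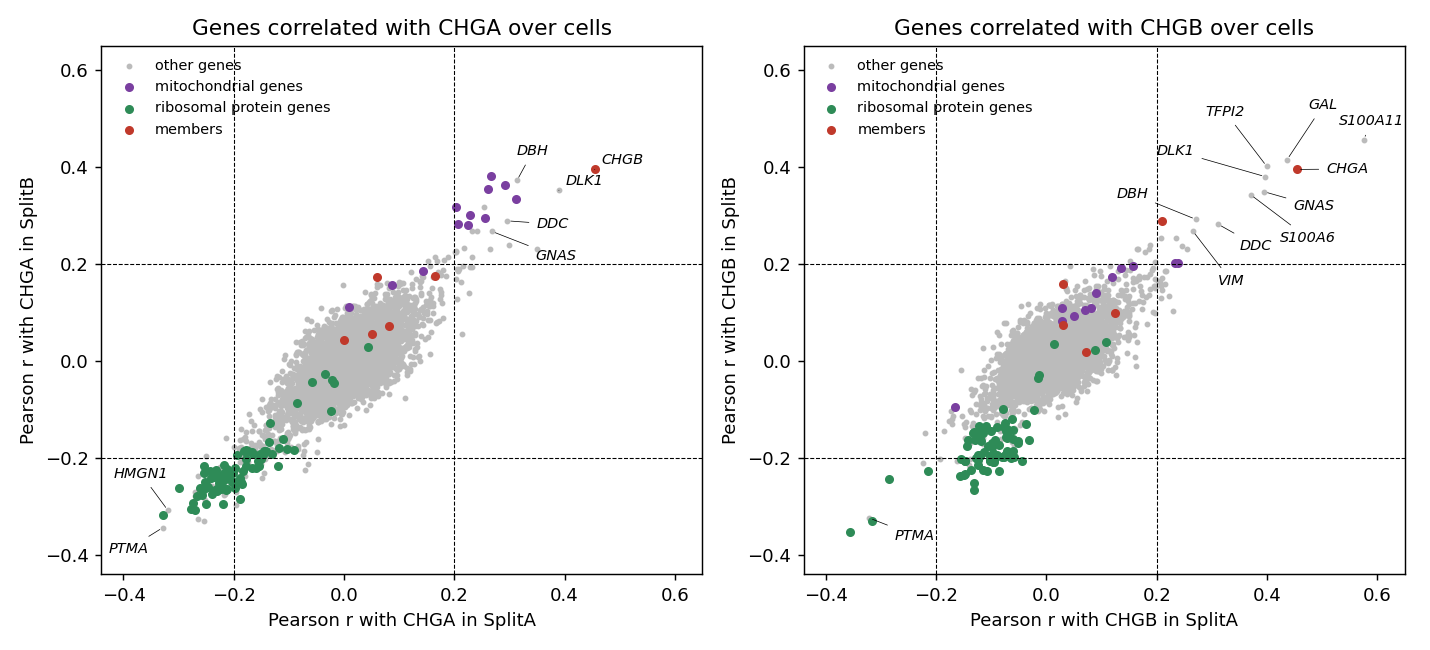
Pearson's r over cells with CHGA (left) and with CHGB (right) of the genes found in at least 10% of cells, SplitA on the x axis and SplitB on the y axis, dashed lines at 0.2 and -0.2. The flasks gave similar values, with S100A11 (0.58 and 0.46) farthest out for CHGB, and mitochondrial and ribosomal protein genes at the opposite ends for CHGA.

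Lists of genes of related function, chosen with earlier results of these data known, were read beside all genes, whose median r was 0.00 and 0.00 with CHGA and 0.01 and 0.01 with CHGB. Of the 7 measured catecholamine genes, 3 had r of at least 0.2 in both flasks with CHGA and the same number with CHGB: DBH, DDC and CYB561, the electron carrier of the vesicle membrane (0.26 and 0.23 with CHGA, 0.25 and 0.23 with CHGB). The median of that list was 0.17 and 0.18 with CHGA and 0.22 and 0.16 with CHGB. Among 28 measured genes of the vesicle membrane and lumen, the 2 that passed with each chromogranin were DBH and CYB561, which both lists hold, and the median was 0.07 and 0.05 with CHGA. Of 6 other peptide precursors, GAL passed with CHGA (0.30 and 0.24), and GAL and VGF with CHGB (VGF 0.25 and 0.24).

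Of 11 chaperones of the endoplasmic reticulum, 4 passed with CHGA: HSPA5 (0.25 and 0.32), HSP90B1 (0.24 and 0.27), CALR (0.23 and 0.22) and PDIA4 (0.20 and 0.23). None passed with CHGB. None of the 26 genes of entry into the secretory pathway and the Golgi passed with CHGA or CHGB, nor did any of the 16 regulators of the neuroendocrine and adrenergic state or the 5 other processing enzymes. The list of chaperones had a median of 0.16 and 0.20 with CHGA and 0.09 and 0.13 with CHGB. The genes of entry and the Golgi had a median of 0.03 and 0.01 with CHGA and 0.04 and 0.04 with CHGB, and the regulators stood at 0.00 and -0.01 and at 0.01 and 0.02.

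Of the remaining members, SCG3, PCSK1N and PAM had 0 genes past 0.2 in size in both flasks, and SCG2 had CHGB on the positive side and RPS7 on the negative. SCG3 was highest with TUBB (0.12 and 0.12), MT-CO1 (0.10 and 0.15) and MT-ND4 (0.10 and 0.12). PCSK1N was highest with GNAS (0.18 and 0.12), MLLT11 (0.10 and 0.11) and DLK1 (0.13 and 0.10). In sparse counts values of this size are no finding. CPE differed, with 14 genes at r of at least 0.2 in both flasks (0.27% of 5190) and 75 at -0.2 or below (1.45%). Of these, 8 of the 14 were mitochondrial and 64 of the 75 were ribosomal protein genes. CPE had r = 0.25 and 0.26 with TUBA1A, a tubulin gene, and 0.23 and 0.24 with HSP90AA1, a cytosolic chaperone gene, both chosen after their values were seen. The relation with TUBA1A was not particular to CPE, as CHGA had 0.20 and 0.23 with it and SCG2 0.11 and 0.22. With HSP90AA1, CHGA had 0.17 and 0.15 and SCG2 0.07 and 0.16. CPE had r = 0.31 and 0.35 with the mitochondrial share of the cell and -0.31 and -0.32 with its ribosomal protein share. CHGA had 0.29 and 0.36 with the mitochondrial share, SCG2 0.06 and 0.20, CHGB 0.09 and 0.18, and PCSK1N -0.06 and -0.01.

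CHGA and CHGB were lower in cells called S or G2M than in cells called G1. Phases were called from scores of S and G2M genes, which gave 372 cells in G1, 292 in S and 235 in G2M in SplitA, and 494, 404 and 297 in SplitB. In SplitA, CHGA stood at 604 CPM in G1 (573 to 636). It stood at 338 CPM in S (312 to 366), and at 213 CPM in G2M (191 to 236). In SplitB these levels were 563, 336 and 184 CPM. CHGB had 277, 158 and 110 CPM in SplitA and 249, 155 and 118 in SplitB. The order G1, S, G2M held for both genes in both flasks. The intervals hold counting error alone, while the spread of these genes over cells was several times larger by the dispersion index, so the step of CHGB from S to G2M was not resolved. The level in G1 was 2.84 and 3.06 times that in G2M for CHGA, and 2.51 and 2.11 times for CHGB.

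They were the 2 of 7 members at least 1.5-fold apart between the same phases in both flasks, among 5191 genes of which 18% were. Over single cells the relation with the scores behind these calls was weak. CHGA had r = -0.07 and -0.14 with the S score and -0.16 and -0.18 with the G2M score. CHGB had -0.13 and -0.11 with the S score and -0.10 and -0.07 with the G2M score. The part of free RNA in the calls was not tested. PCSK1N had 299, 273 and 224 CPM in SplitA and 311, 279 and 246 in SplitB, a fold of 1.33 and 1.27. SCG2 was 1.60 and 1.21 times as high in G1 as in G2M. SCG3 went the other way between G1 and S, with 135 and 158 CPM in SplitA and 140 and 170 in SplitB. These intervals overlapped in SplitA and not in SplitB. The intervals of CPE and of PAM overlapped between all phases in each flask. Cells in G2M were deeper, with a median of 7049 and 7038 UMIs against 5824 and 6128 in G1, while the mitochondrial share was alike (8.83% and 8.89% against 8.45% and 8.83%). Of the G2M genes, HMGB2 had r = -0.25 and -0.33 with CHGA, and the median over 34 measured G2M genes was -0.06 and -0.07. The median over 27 measured S genes was -0.01 and -0.04.

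**Figure D5:**
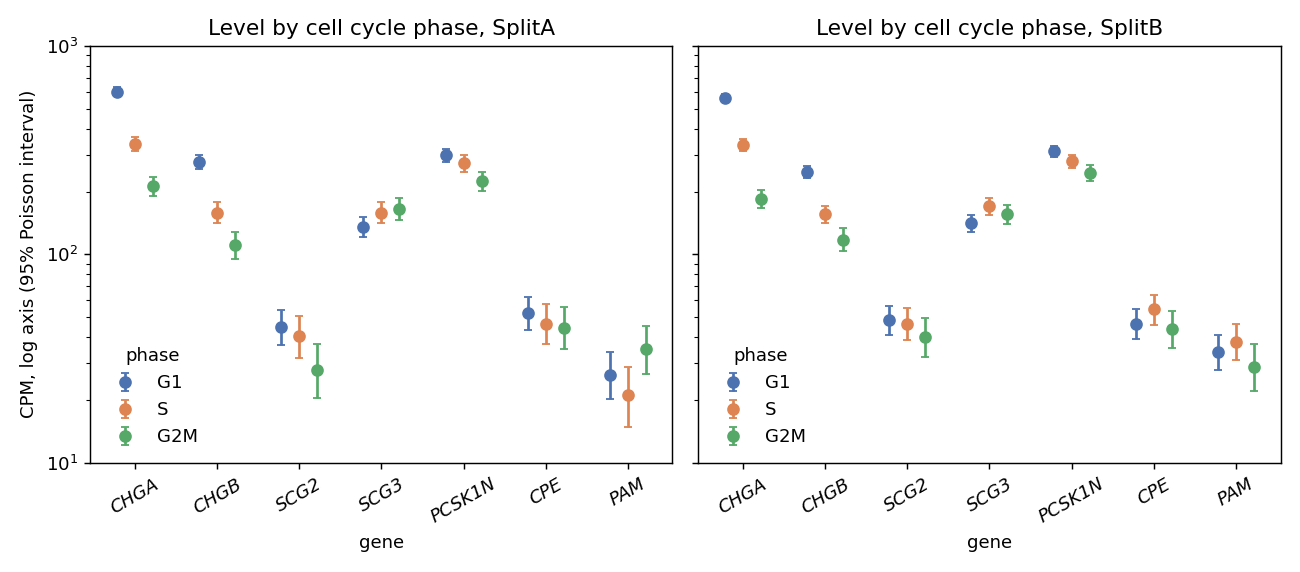
CPM (log axis) by cell cycle phase for the 7 members with a UMI in at least 10% of cells, 1 panel per flask, with 95% Poisson intervals. CHGA steps down from G1 through S to G2M (604, 338 and 213 CPM in SplitA), and CHGB does likewise. SCG2 and PCSK1N step down less, and SCG3, CPE and PAM show no such order shared by both flasks.

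The shallow barcodes held higher shares of granin UMIs. The 280 barcodes of SplitA and 410 of SplitB with under 1000 genes had a median of 1461 and 1355 UMIs and a median mitochondrial share of 32.6% and 36.7%, against 8.64% and 8.82% in kept cells. In them CHGA had 2132 CPM (1994 to 2277) in SplitA and 2051 (1935 to 2171) in SplitB, CHGB 798 and 615, SCG2 203 and 177, and CPE 277 and 295. SCG3 had 222 and 309 CPM. PCSK1N, with 335 (282 to 396) and 315 (270 to 364), and PAM, with 43.4 (25.7 to 68.6) and 40.2 (25.5 to 60.3), had intervals that overlapped those in kept cells. The members thus differed among themselves in these barcodes.

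The kept cells were also split by mitochondrial share. In the 70 cells of SplitA and 104 of SplitB with a mitochondrial share of 15% or more, CHGA had 1183 and 1408 CPM, CHGB 363 and 488, CPE 203 and 216, and PCSK1N 320 and 333. In the 829 and 1091 cells below that share, CHGA had 380 and 342 CPM, CHGB 186 and 170, CPE 42.4 and 40.9, and PCSK1N 267 and 281. The part of depth, cell quality and free RNA in these differences was not tested. In the cells below 15% the chromogranins still varied, with a dispersion index of 6.78 and 5.34 for CHGA and 7.65 and 6.22 for CHGB, and CHGA was 2.54 and 3.06 times as high in G1 as in G2M.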

How the data were processed

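Cells of both flasks were measured by CITE-seq with the 10x Genomics 3′ chemistry. The submitters' processing notes name STAR 2.7, Cell Ranger 4.0.0 and GRCh38; the annotation version is not given in the sources used here. The authors deposited UMI counts of the filtered barcodes as text, without normalization, and the flask of a cell comes from its hashtag counts. Here 2094 cells (13919220 UMIs) were kept and 95 multiplets were left out. No doublet caller was run, and multiplets of 1 flask cannot be seen from hashtags. Counts were summed to CPM, or log-normalized per cell with a scale factor of 10000. Intervals are exact Poisson or Clopper-Pearson at 95%, with 0 counts read as at most 3. Phases followed the Seurat gene lists and scoring steps, rewritten in Python 3.11.15 with numpy 2.4.6 and scipy 1.17.1. Of the genes of these lists, 3 older symbols were not matched and were left out. Lengths and positions came from GENCODE 44. Steps were tested on simulated data.

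The genes named are the 10 members, the 10 highest and 5 lowest correlates of CHGA and of CHGB by the flask value nearer 0, the 3 highest of other members with at least 0.5 UMIs per cell, and at most 5 genes of each list with r of at least 0.2. Some genes that this rule or the marker lists name are not reported here. The genes given by level alone, the GC box and the splits by CHGA UMIs, CHGB UMIs and mitochondrial share were chosen after values were seen. The members and lists were chosen with earlier results of these data known. Alternatives concerned hashtag and gene limits, stricter cell filters (over 500 UMIs, a log10 gene to log10 UMI ratio over 0.75 and a mitochondrial share under 15%), depth, totals, correlation measures, limits and each flask alone. With 1 flask per side no test was made.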

Additional observations from a re-analysis of the deposited data

Results flagged for a closer look

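The 73 multiplets with at least 1000 genes, barcodes whose hashtags did not assign them to a single flask, were used in no comparison. The paper takes such barcodes to hold more than a single cell. In them 7 members were found above the limit that a count of 0 allows. CHGA stood at 559 CPM (500 to 623) there, CHGB at 152, SCG2 at 45, SCG3 at 171, PCSK1N at 247, CPE at 62.3 and PAM at 39.8. These intervals hold counting error alone, which is smaller than the spread of CHGA over cells, so the level of CHGA was not resolved from the 409 and 387 CPM of the flasks. These barcodes had a median of 7636 UMIs and a median mitochondrial share of 9.60%.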

How the results depend on the processing

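The mean over flasks of the r of CHGA with CHGB, 0.42, was 0.30 with cells thinned to 2000 UMIs, its lowest value. It was 0.60 with counting noise subtracted on the scale of counts, its highest, and 0.48 by Pearson residuals of the counts. The number of members past a log2 ratio of 0.25 between flasks was 2 with a hashtag limit of 100, and 0 without the top 2% of UMIs, with cells thinned to 2000 UMIs and by mean log-normalized levels. The number with an index of at least 1.5 was 4 with a minimum of 300 genes, and 5 with an index limit of 1.2. The number of pairs was 1 with a hashtag limit of 100, thinned cells, Spearman's rho or an r limit of 0.3, and 11 with counting noise subtracted. These 11 include SCG3 with CPE, whose corrected value in SplitA was 1.08. Shares of all genes or pairs under the alternatives of this section are not given here. Its counts of members and pairs are therefore no result about the members. The genes with an absolute r of at least 0.2 with CHGA, 85 in all, were 170 with a minimum of 300 genes, 35 with 1500, 22 with the stricter cell filters, 23 when thinned, 24 by Spearman's rho, 133 with depth and cycle scores held constant, 45 by Pearson residuals and 7 at a limit of 0.3. For CHGB, 23 in all, they were 14, 44, 35, 7, 82 and 10 with 300 genes, 1500 genes, the stricter filters, thinning, depth and cycle scores held constant, and a limit of 0.3. With 1 flask left out the ranges were 2 to 3 members by index, 2 to 2 pairs, 99 to 121 genes for CHGA, 35 to 58 for CHGB and 2 to 4 members by phase. The cause of these changes was not tested, apart from those that the limits themselves make. A minimum of 300 genes moved 9 CPM values of members out of their interval, thinning 8 and leaving mitochondrial genes out of the totals 8. No paired analysis was possible because the result comes from no test and the replicate numbers of the flasks pair nothing. Depth limits PCSK1, PCSK2 and SCG5 to detection alone.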
